A study of Nothobranchius furzeri with 39 samples.

Results

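The genes alas1, foxa2 and pdk2a were followed through every brain and liver library of a killifish study, 3 of the 25099 genes in its 2-month table. They were selected on the 2-month liver values of atm cgas double mutants, foxa2 and alas1 against wild type (WT) and pdk2a against atm mutants, so those liver levels are given as a description with no test. The file lists pdk2a as LOC107387611, and its symbol comes from the gene table. The 3-month tables hold 16383 genes, among them 2 of the 3: alas1 and pdk2a. At 3 months foxa2 was not analysed here.

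The turquoise killifish, Nothobranchius furzeri, is a short-lived fish used to study vertebrate ageing, and polyA RNA of brain and liver was sequenced. At 2 months of age, the WT, atm mutant and atm cgas double-mutant groups were each represented by 2 males and 2 females per tissue, except that 3 atm mutant livers (2 females and 1 male) were analysed here. At 3 months, livers of 4 WT and 3 blm mutant males formed a separate experiment, and brains of 2 WT fish (1 male and 1 female) and 5 cgas mutants (2 males and 3 females) formed another. The kinase encoded by atm responds to DNA breaks, blm encodes a helicase that resolves DNA during repair, and cgas encodes a sensor of DNA in the cytosol. The labels name the mutated genes without the alleles, and they do not say how long before sampling a fish had last fed.

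Heme is made in every cell, and the liver needs much of it for cytochromes of the P450 family. The first and rate-limiting step is carried out by 5-aminolevulinate synthase, encoded by alas1, while a second gene, alas2, serves red blood cells. The forkhead transcription factor encoded by foxa2 opens chromatin at liver genes during development and, in mouse, acts on fat and ketone metabolism during fasting. Pyruvate dehydrogenase kinases, of which pdk2a encodes one, switch off the pyruvate dehydrogenase complex and so keep pyruvate from being oxidised. In mouse liver, transcripts of alas1 and of another of these kinases, pdk4, rise with fasting.

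Total counts (M, for 1000000) ran from 18.63 to 39.28 M in 2-month brains and from 25.0 to 36.82 M in 2-month livers. The 3-month tables, which hold part of the genes, gave 19.5 to 24.09 M in liver and 11 to 17.28 M in brain. Of 15 hepatocyte markers listed, 9 were in the 2-month table (hp was at 0 in every liver), and they summed to 34940 to 147800 counts per 1000000 (CPM) in livers against 974 to 1750 CPM in brains. The livers of WT females 3 and 4 stood apart: their 20 most-counted genes held 54 and 59.8% of the counts, against 30.4 to 37.4% in the other livers. Their hepatocyte markers summed to 35750 and 34940 CPM, the lowest of the 11. The cgas gene, listed as mb21d1, had 0 or 1 counts in double-mutant livers 1 to 3 but 212 in the liver labelled double mutant 4. It had 0, 6 and 5 counts in WT livers 2 to 4 and 2 or 3 in atm mutant livers, so a low count in liver does not mark a cgas mutant. That liver and WT liver 1, with 271 counts of mb21d1, also had the highest sums of 6 macrophage and leukocyte markers, at 335.8 and 174 CPM against 3.15 to 14.1 CPM in the other livers. Fold changes of the 3 genes are therefore also given without the library labelled double mutant 4.

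In 2-month livers, all 3 genes were lowest in the double mutants. The level of alas1, as CPM after TMM scaling, was 133.2 and 136.2 in WT males 1 and 2, and 461.1 and 413.6 in WT females 3 and 4. It was 119.9 and 192.8 CPM in atm mutant females 1 and 2 and 142.2 CPM in atm mutant male 4. Double-mutant males 1 and 4 had 72.2 and 52.4 CPM, and females 2 and 3 had 74.0 and 68.9 CPM. Every double mutant lay below every other liver, and both WT females lay above all other livers. Mean levels were 286.0 ± 175.8 CPM for the 4 WT livers, 151.6 ± 37.4 CPM for the 3 of atm mutants and 66.9 ± 9.88 CPM for the 4 of double mutants (± SD). Without scaling factors, the WT females had 325.1 and 262.0 CPM, the WT males 149.2 and 143.6 CPM and the double mutants 74.4 to 84.4 CPM, in the same order. Hepatocyte markers summed to 34940 to 120800 CPM in WT, 69870 to 126100 CPM in atm mutant and 59150 to 147800 CPM in double-mutant livers. In these bulk samples, fewer hepatocytes and less RNA per hepatocyte cannot be told apart.

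Levels of foxa2 in WT livers were 52.3 and 63.3 CPM in males 1 and 2 and 101.4 and 58.9 CPM in females 3 and 4. The atm mutant livers had 42.6 CPM in female 1, 105.5 CPM in female 2 and 58.6 CPM in male 4. Among double mutants, males 1 and 4 had 12.0 and 17.8 CPM and females 2 and 3 had 17.7 and 12.9 CPM. WT and atm mutants overlapped, while the highest double mutant was less than the lowest of the other 7 livers. The counts behind these values were 448 to 869 in double mutants and 999 to 3411 in the others. Markers of the exocrine pancreas, a tissue in which foxa2 is also made, did not follow this order: 3 of 13 were in the table, and they summed to 16.3 to 68.5 CPM in WT, 45.1 to 422.4 CPM in atm mutants and 21.6 to 184.6 CPM in double mutants. Endocrine pancreas markers, 3 of 6 in the table, summed to 30.24 CPM in atm mutant female 2 and 19.99 CPM in double-mutant female 2. In the other livers they summed to 0.041 to 1.098 CPM. The liver of atm mutant female 2 was highest for foxa2, but WT female 3, next highest, had 0.05674 CPM of these markers. Double-mutant male 4, with a foxa2 level near that of double-mutant female 2, had 0.041 CPM. The part of exocrine or endocrine pancreas in the foxa2 levels was not tested.

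For pdk2a, WT males 1 and 2 had 29.7 and 51.5 CPM, and WT females 3 and 4 had 39.2 and 45.2 CPM. The atm mutants had 46.6 CPM in female 1, 67.3 CPM in female 2 and 49.2 CPM in male 4. Double-mutant males 1 and 4 had 12.1 and 9.86 CPM, and females 2 and 3 had 16.1 and 12.8 CPM. Again the double mutants formed the bottom of the range without overlap, with means of 12.7 ± 2.57 CPM (SD, n = 4) against 41.4 ± 9.28 CPM in WT (SD, n = 4) and 54.4 ± 11.3 CPM in atm mutants (SD, n = 3). Within the double mutants the levels of alas1, foxa2 and pdk2a each varied less than 2-fold. The 3 genes were selected on double-mutant liver levels, and the share of all genes with such a separation was not counted.

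**Figure D1:**
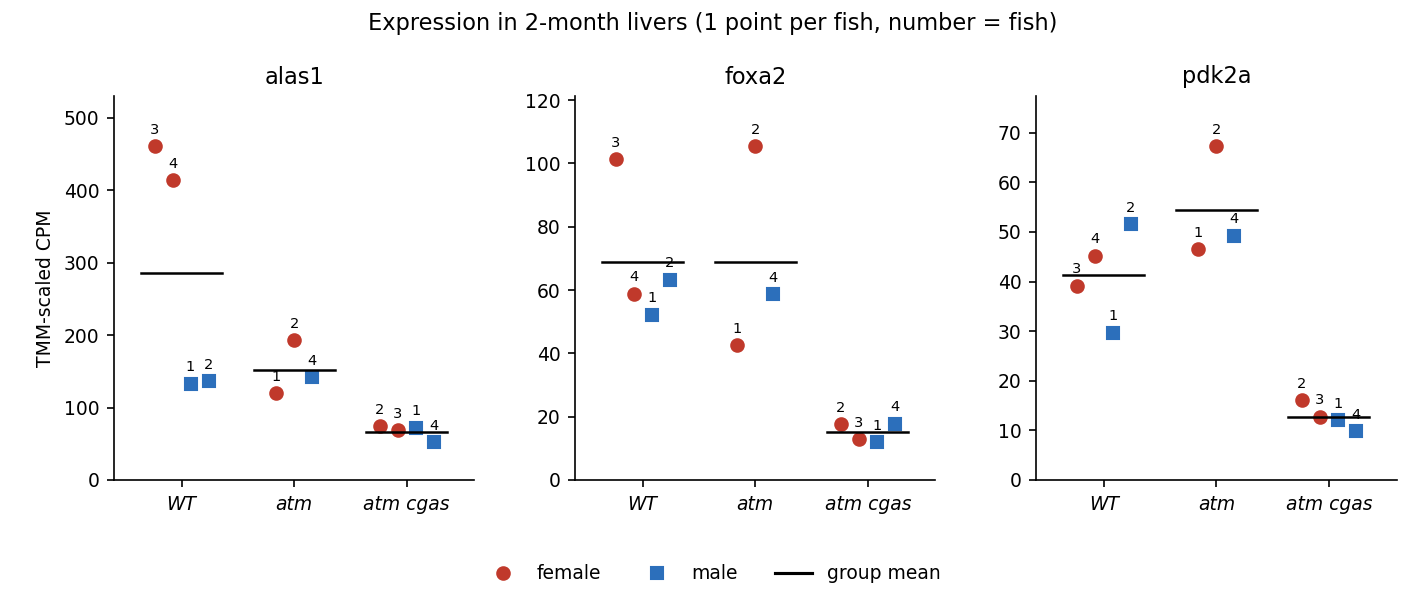
TMM-scaled CPM (y axis, from 0) of alas1, foxa2 and pdk2a in each 2-month liver by genotype; circles are females, squares are males, numbers name the fish and bars are group means. The 4 double mutants are lowest for each gene (52.4 to 74.0, 12.0 to 17.8 and 9.86 to 16.1 CPM), and WT females 3 and 4 are highest for alas1.

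Between double mutants and WT, with sex as covariate, the log2 fold change was -1.92 (SE 0.342) for alas1, -2.17 (SE 0.309) for foxa2 and -1.72 (SE 0.209) for pdk2a, or 3.78-, 4.50- and 3.29-fold lower. All 3 were among the 107 of 16174 genes (0.662%) past an adjusted p of 0.05 in edgeR's quasi-likelihood test with Benjamini-Hochberg adjustment. This comparison chose alas1 and foxa2, while pdk2a was chosen against atm mutants in the same livers. Passing here is therefore no test of the 3 genes. With each liver left out in turn, edgeR adjusted p ran from 0.0218 to 0.174 for alas1, 0.0128 to 0.153 for foxa2 and 0.0101 to 0.143 for pdk2a. With the replicate number as a block, or with only the 2 groups fitted, 0 of the genes tested passed. Against atm mutants the log2 fold changes of alas1, foxa2 and pdk2a were -1.07 (SE 0.350), -2.13 (SE 0.327) and -2.07 (SE 0.222). There 1 of the 3, pdk2a, was among the 7 genes (0.0433%) past the threshold. That comparison chose pdk2a, and the edgeR adjusted p of pdk2a reached 0.115 with 1 liver left out. The atm mutants differed from WT by -0.85 (SE 0.358) for alas1, -0.04 (SE 0.321) for foxa2 and 0.35 (SE 0.220) for pdk2a on the log2 scale. None of the 16174 genes passed in that comparison (0.0%), where 1621 had an unadjusted p under 0.05 and DESeq2 called 118. These 3 comparisons share their libraries, so their values are not independent of each other. Without the library labelled double mutant 4, the fold changes against WT were -1.90, -2.32 and -1.61, and those against atm mutants -1.05, -2.27 and -1.98.

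Without scaling factors the fold changes against WT were -1.42, -1.68 and -1.25, while the median over all genes moved from 0.00 to 0.48. Relative to all genes, the 3 genes were thus lower in double mutants with and without scaling.

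Males and females differed in alas1 mainly among WT livers. Females of the double mutants differed from WT females by -2.61 (SE 0.289) on the log2 scale, and males by -1.11 (SE 0.275). The atm mutant females differed from WT females by -1.48 (SE 0.277), and the single atm mutant male from WT males by 0.08 (SE 0.332). The high alas1 level of WT females 3 and 4 was seen in neither mutant group, and these are also the livers whose most-counted genes and hepatocyte markers stood apart. The part of that composition in the alas1 level was not tested. For foxa2, double mutants differed from WT by -2.39 (SE 0.480) in females and -1.95 (SE 0.472) in males. For pdk2a the values were -1.55 (SE 0.310) in females and -1.89 (SE 0.313) in males.

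The female minus male difference of the double-mutant effect was fitted over all livers, the same ones on which the genes were selected. The p-values here are therefore not independent of that choice. For alas1 the difference was -1.50 (SE 0.387, unadjusted p = 0.00491), with an adjusted p of 0.126 by edgeR's quasi-likelihood test. The same difference was -0.43 (SE 0.646, adjusted p = 0.791) for foxa2 and 0.34 (SE 0.429, adjusted p = 0.748) for pdk2a in the same edgeR test. None of the 3 genes passed, while 68 of 16174 genes (0.42%) did, and here 2581 genes had an unadjusted p under 0.05. The alas1 result depended on the tool, since DESeq2, where 789 of 16174 genes passed, gave -1.52 with an adjusted p of 0.00888. It also passed in edgeR without the library labelled double mutant 4, at -1.72 with an adjusted p of 0.0437, and ranged up to an adjusted p of 0.38 with other livers left out. Without scaling factors the alas1 value was -0.86 (edgeR adjusted p = 0.141), and that of foxa2 turned to 0.11. For atm mutants, with 1 male, the corresponding difference in alas1 was -1.56 (SE 0.424, edgeR adjusted p = 0.394), and 0 of 16174 genes passed, with 1169 at an unadjusted p under 0.05. With DESeq2, alas1 gave -1.58 there, with an adjusted p of 0.0432, and 202 genes passed.

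Over the 3 genotypes, males had less alas1 than females, by -0.73 on the log2 scale (SE 0.287), with an unadjusted p of 0.0296 and an adjusted p of 0.184 in edgeR's quasi-likelihood test. The male minus female values of foxa2 and pdk2a were -0.28 (SE 0.258, adjusted p = 0.553) and -0.22 (SE 0.176, adjusted p = 0.483) in the edgeR test, and without scaling factors both turned positive, to 0.06 and 0.09. None of the 3 genes was among the 439 of 15456 genes (2.84%) that passed between the sexes, of which 198 were higher and 241 lower in males. In WT livers alone, 2 males against 2 females, the alas1 difference was -1.71 (SE 0.150) with an edgeR adjusted p of 0.00887. In that fit 982 of 14832 genes passed, and its females are the livers whose most-counted genes and hepatocyte markers stood apart. The comparison that chose alas1 used these same WT livers, so the p-value is not independent of that choice.

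Of the relatives of the 3 genes, alas2, foxa3, pdk1, pdk3 and pdk4 were tested here, and none passed between double mutants and WT in liver. The red-cell synthase gene alas2 was at 17.8 ± 5.87 CPM in WT (SD, n = 4) and 23.5 ± 15.5 CPM in double mutants (SD, n = 4), and its log2 fold change was 0.41 (SE 0.570, edgeR adjusted p = 0.727). The liver forkhead gene foxa3 was at 196.3 ± 110.7 and 226.2 ± 20.1 CPM (SD, n = 4 each), and differed by 0.28 on that scale (SE 0.326, edgeR adjusted p = 0.675). Counts of foxa1 in 2-month livers were 0 to 2, and it was not tested there. The kinase gene pdk4, which in mouse responds to fasting, was at 161.0 ± 38.7 CPM in WT and 126.2 ± 17.8 CPM in double mutants (SD, n = 4 each), and the log2 difference was -0.34 (SE 0.198, edgeR adjusted p = 0.376). For pdk1 and pdk3 the log2 fold changes were 0.06 (SE 0.285) and 0.22 (SE 0.375), with edgeR adjusted p of 0.929 and 0.780. None of these adjusted p values shows that a gene did not differ. With single-end reads, counting between related genes could not be checked.

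The lists of related genes, counted without the 3 genes themselves, held few that passed between double mutants and WT in liver by edgeR's test. Of 27 heme genes tested, 0 passed, 8 had an unadjusted p under 0.05 upward and 1 downward, and DESeq2 called 3. Their median log2 fold change was 0.12, against 0.00 over all genes, and 19.5% of all genes had an unadjusted p under 0.05. Among 17 genes around pyruvate dehydrogenase, 0 passed (also 0 by DESeq2), with 1 upward and 2 downward at an unadjusted p under 0.05 and a median of -0.05. Of 27 hepatocyte transcription factors, 0 passed (7 by DESeq2), with 2 upward and 6 downward at that level and a median of -0.26. Of 48 genes of the fasting response, 1 passed: nr3c1, the glucocorticoid receptor, fell by 0.77 (SE 0.144, edgeR adjusted p = 0.0493), from 26.5 ± 3.65 CPM in WT to 15.5 ± 2.02 CPM in double mutants (SD, n = 4 each). At an unadjusted p under 0.05, 3 genes of that list were upward and 8 downward, DESeq2 called 8, and the median was 0.06. Of 34 genes of the feeding response, 1 passed: pgd, an enzyme of the pentose phosphate pathway, rose by 1.92 (SE 0.224, edgeR adjusted p = 0.0292). The groups overlapped for pgd, at 10.56 to 36.75 CPM in WT and 28.27 to 169.3 CPM in double mutants. In that list 7 genes were upward and 0 downward at an unadjusted p under 0.05, DESeq2 called 4, and the median was 0.27. Over all genes tested, 0.662% passed in this comparison. Among well-counted members, pc, which encodes pyruvate carboxylase, had a value of -0.23 (SE 0.261, edgeR adjusted p = 0.656).

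By sex, the same lists did hold genes that passed where alas1, foxa2 and pdk2a did not. Over all genes tested, 2.84% passed. In the lists these were 2 of 26 heme genes, 1 of 16 around pyruvate dehydrogenase and 1 of 27 hepatocyte transcription factors. Of the fasting response 1 of 46 passed, and of the feeding response 2 upward and 3 downward of 34. In males, ppargc1a, a coactivator that raises alas1 transcription in mouse, rose by 1.99 (SE 0.382, edgeR adjusted p = 0.0277). The mitochondrial pyruvate carrier gene mpc1 rose by 0.80 (SE 0.164, edgeR adjusted p = 0.0347), and rxra, a partner of nuclear receptors, by 0.57 (SE 0.120, edgeR adjusted p = 0.0369). Of the feeding response, pgd and ldlr passed upward in males and thrsp, pfkfb4 and dgat2 downward. In the sex by double-mutant comparison, the only passing list genes were sqle, lss, srebf2 and aclyb, 4 of 34 of the feeding response, all with negative values. The value was -2.50 for aclyb (SE 0.362) and -3.36 for srebf2 (SE 0.454), each with an edgeR adjusted p of 0.0446. Negative values were common there: of the 68 genes that passed (0.42% of all tested), 53 were negative and 15 positive.

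**Figure D2:**
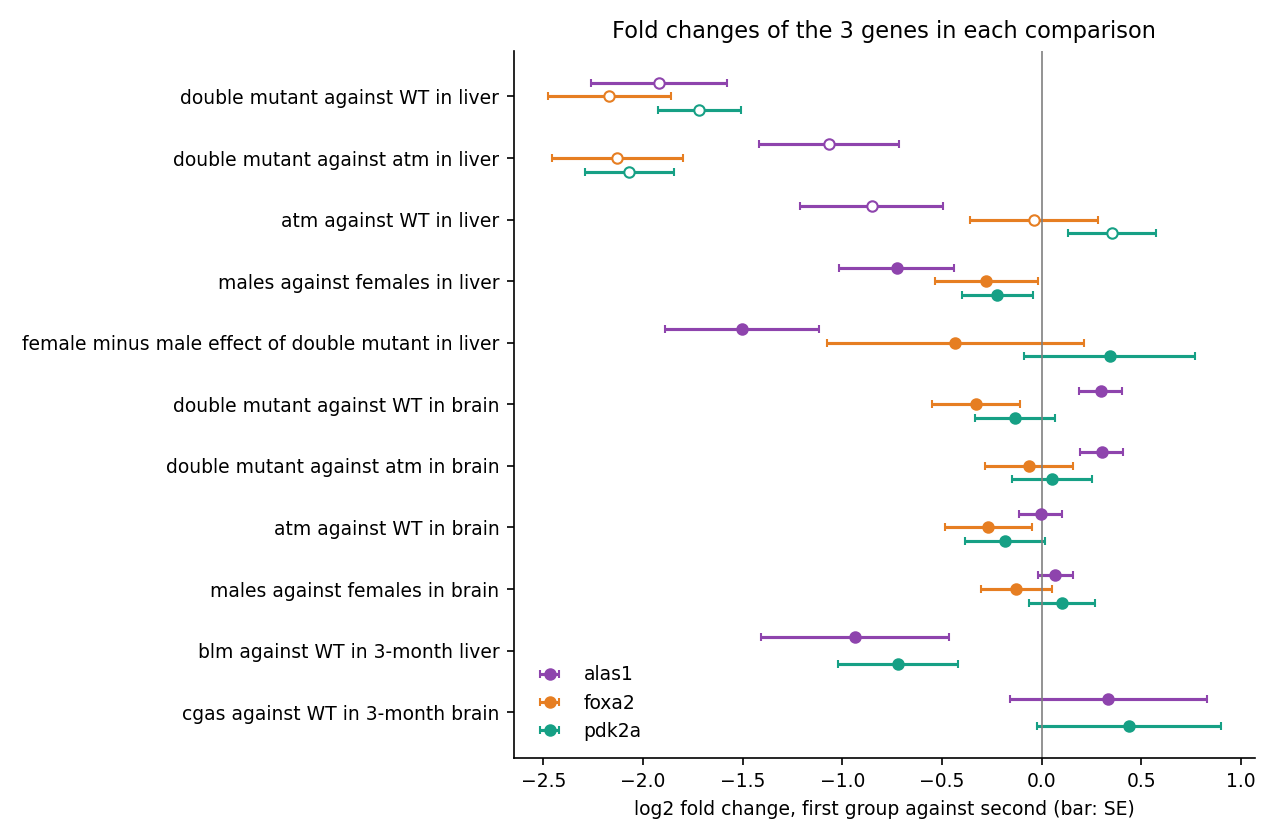
Log2 fold changes (x axis, bars are SE) of alas1, foxa2 and pdk2a in each comparison. Open points are the genotype comparisons in liver among WT, atm mutants and double mutants, and filled points the others. The genes were selected on double mutants against WT (alas1 and foxa2) and against atm mutants (pdk2a). The 3 genes lie between -1.72 and -2.17 for double mutants against WT in liver, and between -0.33 and 0.30 for the same genotypes in brain.

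The 2-month brains did not repeat the liver pattern. In WT brains alas1 was at 59.7 and 62.3 CPM in males 1 and 2 and 67.9 and 65.4 CPM in females 3 and 4. The atm mutants had 55.9 and 65.3 CPM in females 1 and 2 and 67.8 and 65.8 CPM in males 3 and 4. Double mutants had 67.3 and 98 CPM in males 1 and 4 and 75.3 and 73.5 CPM in females 2 and 3. Double mutants 2, 3 and 4 lay above all other brains, the opposite order to liver, and male 1 lay within the WT range. The log2 fold change of alas1 was 0.30 (SE 0.108) against WT and 0.30 (SE 0.108) against atm mutants, with unadjusted p of 0.0173 and 0.0156 and adjusted p of 0.891 and 0.819 by edgeR's quasi-likelihood test. Without brain 4 of the double mutants, whose library also held 131 counts of mb21d1 against 5 to 9 in the others of its group, both fell to 0.17. WT brains held 8 to 14 and atm mutant brains 6 to 13 counts of mb21d1, so a low count in brain does not mark a cgas mutant. In brain 4 of the double mutants, 6 macrophage and leukocyte markers summed to 305 CPM, against 30.95 to 58.18 CPM in the other brains. The part of these differences in the alas1 level was not tested.

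Levels of foxa2 in brain were low, with 44 to 151 counts per library. WT brains had 5.57 and 2.78 CPM in males 1 and 2 and 3.90 and 4.46 CPM in females 3 and 4, and atm mutants had 4.09, 3.45, 3.30 and 3.08 CPM in fish 1 to 4. Double mutants had 2.33, 3.86, 3.22 and 3.84 CPM in fish 1 to 4. The 3 genotypes overlapped, and the log2 fold change against WT was -0.33 (SE 0.219, edgeR adjusted p = 0.907) in double mutants and -0.27 (SE 0.220, edgeR adjusted p = 0.746) in atm mutants.

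In brain, pdk2a was at 52.0 and 29.2 CPM in WT males 1 and 2 and at 41.4 and 43.4 CPM in WT females 3 and 4. The atm mutants had 33.6, 35.5, 29.9 and 47.8 CPM and the double mutants 30.7, 34.5, 37.0 and 49.6 CPM in fish 1 to 4. No genotype stood apart. The log2 fold changes were -0.13 (SE 0.201, edgeR adjusted p = 0.992) for double mutants against WT, 0.05 (SE 0.202, edgeR adjusted p = 0.969) for double against atm mutants and -0.18 (SE 0.202, edgeR adjusted p = 0.829) for atm mutants against WT. By its 95% normal interval, the double-mutant effect on pdk2a in brain lay between -0.53 and 0.26. A normal interval makes no allowance for a spread estimated from few fish. Whether the effects differ between the tissues was not tested, and the liver values come from the livers on which the genes were selected.

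Of 20273 genes tested in brain, 1 (0.00493%) passed for double mutants against WT, 0 (0.0%) against atm mutants, where 1077 had an unadjusted p under 0.05 and DESeq2 also called 0, and 2 (0.00987%) for atm mutants against WT. None of the 3 genes was among them. Sex in brain gave male minus female values of 0.07 (SE 0.0885) for alas1, -0.13 (SE 0.179) for foxa2 and 0.10 (SE 0.165) for pdk2a, with edgeR adjusted p of 0.784, 0.803 and 0.828, and 1 of 19883 genes (0.00503%) passed.

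**Figure D3:**
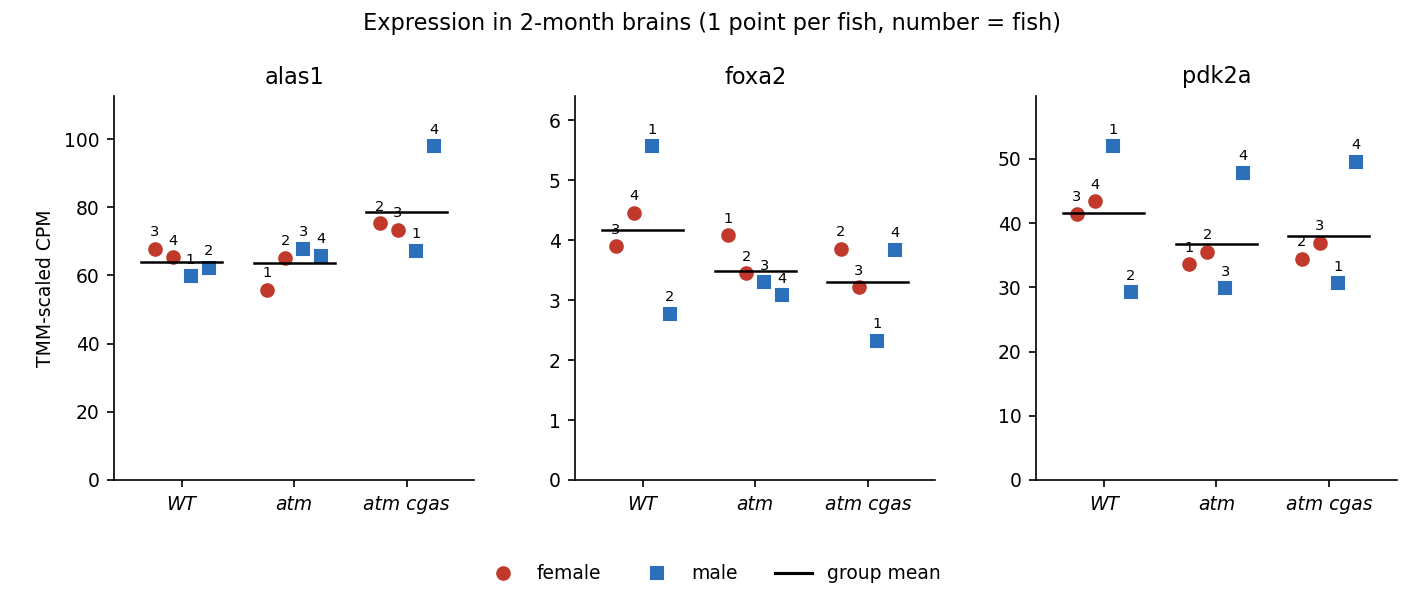
TMM-scaled CPM (y axis, from 0) of alas1, foxa2 and pdk2a in each 2-month brain by genotype; circles are females, squares are males, numbers name the fish and bars are group means. The genotypes overlap for each gene, and double mutant 4 is highest for alas1 at 98 CPM.

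Within WT fish, liver and brain were compared on a common scale of both tissues. The livers had 231.6 to 799.7 CPM of alas1 against 29.3 to 34.1 CPM in brains, and 90.9 to 175.8 CPM of foxa2 against 1.34 to 2.73 CPM. For pdk2a the livers had 51.7 to 89.7 CPM against 14.1 to 25.5 CPM in brains. Liver was higher without overlap for all 3 genes, by 3.75 (SE 0.339, edgeR adjusted p = 1.77e-05) for alas1, 5.84 (SE 0.321, edgeR adjusted p = 9.9e-07) for foxa2 and 1.81 (SE 0.239, edgeR adjusted p = 0.000172) for pdk2a on the log2 scale. Between the tissues 15044 of 19757 genes (76.1%) passed, so that 3 of 3 is near that background. Scaling matters here: without scaling factors the median of all genes was -2.27, and the values were 1.71, 3.81 and -0.24, so that for pdk2a the direction turned and the edgeR adjusted p was 0.401. Relative to the other genes of each tissue, pdk2a was higher in liver under both scales, while its share of all counts was not. Among relatives, pdk4 was higher in liver by 3.07 (SE 0.16, edgeR adjusted p = 7.13e-07), pdk1 lower by -2.39 (SE 0.190, edgeR adjusted p = 8.15e-06) and pdk3 lower by -1.64 (SE 0.151, edgeR adjusted p = 1.98e-05).

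The livers of 3-month males gave levels of alas1 and pdk2a in fish that took no part in the choice of the genes. WT livers L7, L8, L19 and L33 had 193.2, 186.5, 173.3 and 611.6 CPM of alas1, and blm mutants L3, L29 and L30 had 139.0, 157.2 and 159.7 CPM. The WT male L33 was thus far above the rest, and the blm mutants lay below all WT males. That separation was not kept without scaling factors, where L30 reached 187.7 CPM and WT L7 169.0 CPM. Nor was the share of all genes with such a separation counted. The log2 fold change of alas1 was -0.94 (SE 0.472, unadjusted p = 0.083, edgeR adjusted p = 0.687), and without L33 it was -0.28. Exocrine pancreas markers, 2 of 13 in this table, summed to 72.6 CPM in L33 and to 131.5 to 1152 CPM in the other WT livers, and hepatocyte markers to 228900 CPM in L33 and 140200 to 234400 CPM in the others.

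For pdk2a at 3 months, WT livers L7, L8, L19 and L33 had 36.8, 34.5, 71.4 and 52.1 CPM, and blm mutants L3, L29 and L30 had 21.2, 38.3 and 29.1 CPM. The groups overlapped, with L29 above L7 and L8. The log2 fold change was -0.72 (SE 0.300, unadjusted p = 0.0417, edgeR adjusted p = 0.595). Of 10374 genes tested, 0 passed (0.0%), with 835 at an unadjusted p under 0.05, so neither of the 2 genes was called.

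In 3-month brains, WT female 4 had 125.3 CPM and WT male 3 had 85 CPM of alas1. The cgas mutants had 112.5, 81.9 and 132.0 CPM in females 1 to 3 and 90.8 and 264.1 CPM in males 2 and 3. For pdk2a the WT brains had 59.1 and 46.4 CPM, and the cgas mutants 56.5, 55.4 and 65.3 CPM in females 1 to 3 and 44.8 and 141.5 CPM in males 2 and 3. The mutant range included the WT range for both genes, and cgas mutant male 3 was highest for both. In that library the 20 most-counted genes held 38.2% of the counts, against 11.5 to 33.2% in the others. Its level of slc4a1, the anion exchanger of red blood cells and the 1 of 8 listed red-cell markers in this table, was 861.8 CPM against 75.6 to 286.3 CPM, and its 3 neuron markers summed to 1209 CPM against 1540 to 2665 CPM. Intestine markers, 4 of 12 in this table, summed to 306.1 CPM in that library, 531.7 CPM in WT female 4 and 180 CPM in WT male 3. In the other cgas mutant brains they summed to 8.74 to 57.6 CPM. Hepatocyte markers, 8 of 15, summed to 5459 CPM in cgas mutant female 3 and to 487.5 to 1639 CPM in the other brains. The part of these differences in the alas1 and pdk2a levels was not tested. The log2 fold change of cgas mutants against WT was 0.33 (SE 0.493, edgeR adjusted p = 0.999) for alas1 and 0.44 (SE 0.463, edgeR adjusted p = 0.992) for pdk2a. Without cgas mutant male 3 the values turned to -0.16 and -0.09, and they also turned negative without scaling factors. Leaving out a control moved them too: to -0.20 and 0.00084 without WT male 3, and to 1.07 and 1.01 without WT female 4. Neither gene was among the 64 of 13825 genes (0.463%) that passed.

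**Figure D4:**
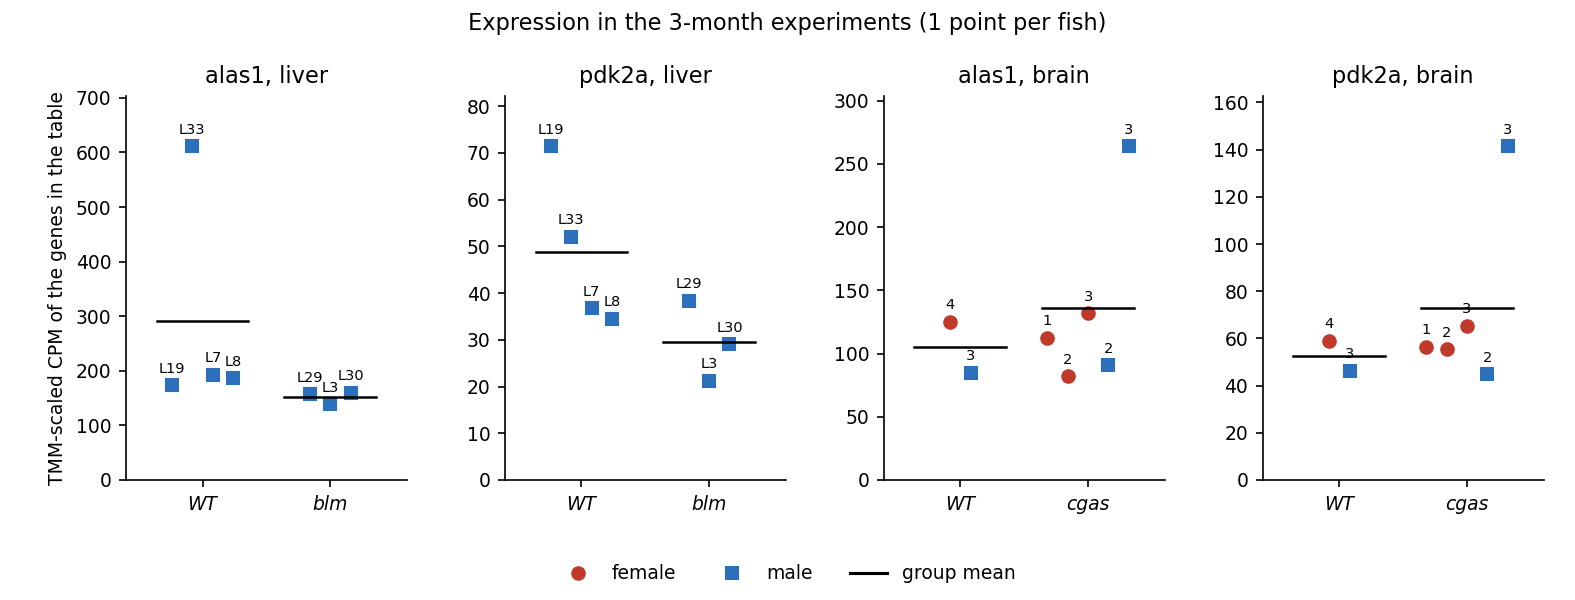
TMM-scaled CPM (y axis, from 0, relative to the genes in each table) of alas1 and pdk2a in 3-month livers of WT and blm mutant males and in 3-month brains of WT and cgas mutants; circles are females, squares are males, labels name the fish and bars are group means. L33 stands out for alas1 at 611.6 CPM in liver, and cgas mutant male 3 for both genes in brain at 264.1 and 141.5 CPM.

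Across the 11 livers at 2 months, the double mutants formed a cluster of their own for foxa2 and pdk2a, so the relation between the genes was tested only on deviations from genotype means. There, Pearson's r was 0.49 for alas1 with foxa2 (rho 0.45), 0.34 for alas1 with pdk2a (rho 0.46) and 0.40 for foxa2 with pdk2a (rho 0.40). Two-sided exact permutation within genotypes gave p = 0.145, 0.465 and 0.272 for r and p = 0.219, 0.235 and 0.249 for rho. In a family of 8 relations the adjusted exact permutation values were 0.351, 0.531 and 0.413 for r and 0.305 for each rho. With the 2 livers farthest from the median left out, r was 0.46, 0.51 and 0.34. Of 16173 genes, 18.8, 27.9 and 8.47% had an r at least as high with the first gene of each pair. Sex was left in these deviations, and the permutation exchanged males and females within a genotype. In WT livers, alas1 was at 133.2 and 136.2 CPM in males and at 461.1 and 413.6 CPM in females.

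Among the 7 livers of WT and atm mutants alone, a subset chosen after seeing the data and given as a description, r was 0.56 for alas1 with foxa2, -0.07 for alas1 with pdk2a and 0.38 for foxa2 with pdk2a. WT females 3 and 4 carry the alas1 spread here: without them r was 0.98 for alas1 with foxa2 and 0.65 with pdk2a, over 5 livers. In these livers atm mutant female 2 was highest for pdk2a and foxa2 and, for alas1, lower than WT females 3 and 4 only.

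Over the 7 livers at 3 months, alas1 and pdk2a gave r = 0.46 (rho 0.50) with exact permutation p = 0.31 and 0.267, adjusted 0.413 and 0.305. Without L33 and L3, the 2 libraries farthest from the median of alas1, r was 0.08. On deviations from genotype means r was 0.17. No relation between the genes passed in liver.

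In brain, the 2-month deviations gave r of 0.18 for alas1 with foxa2, 0.45 for alas1 with pdk2a and 0.62 for foxa2 with pdk2a (rho -0.09, 0.39 and 0.48). Permutation p over 100000 draws was 0.631, 0.176 and 0.0704 for r and 0.793, 0.25 and 0.173 for rho, with adjusted values of 0.631, 0.351 and 0.282 for r. Leaving out the 2 brains farthest from the median turned the first to -0.41 and lowered the others to 0.03 and 0.29.

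The 7 brains at 3 months, looked at after the others, gave r = 0.95 for alas1 with pdk2a (rho 0.86), with exact permutation p = 0.00595 and 0.0238, adjusted to 0.0476 for r and 0.19 for rho. Without cgas mutant male 3 and female 2 r was 0.97, and without male 3 alone it was 0.78. Of 13824 genes, 0.239% had an r with alas1 as high as that of pdk2a. The permutation was over all 7 brains and not within genotypes, and with 2 WT brains no value within WT was computed. The marker differences between these brains were not taken into account.

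**Figure D5:**
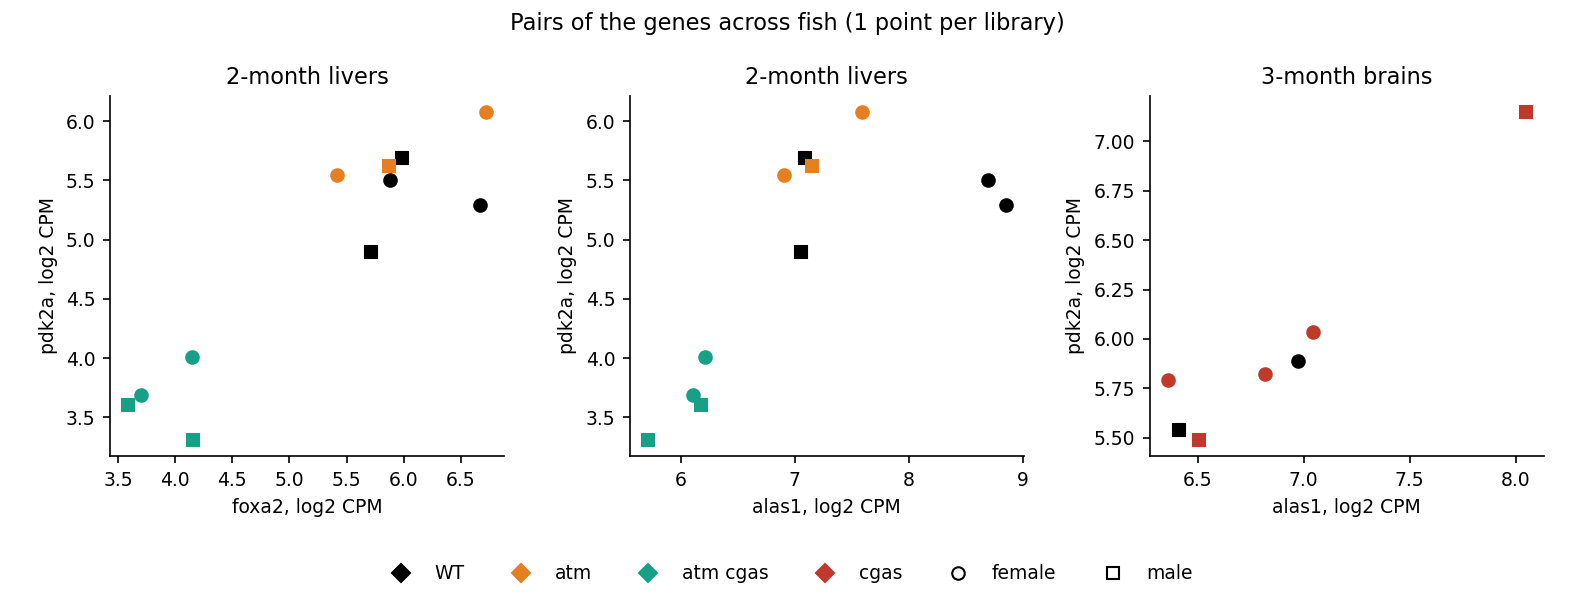
Log2 CPM (prior count 2) of pdk2a against foxa2 and against alas1 in 2-month livers, and of pdk2a against alas1 in 3-month brains; each point is a library, colour gives the genotype and shape the sex. Double mutants sit apart at the lower left in liver, WT females 3 and 4 at the right of the middle panel, and cgas mutant male 3 at the upper right in brain.

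Genes whose pattern over the 11 livers was most like each of the 3 were found by Pearson's r of log2 CPM among 9374 named genes whose log2 CPM averaged 1 or more, as a description with no test. For alas1 they were ogfod2, p3h1, ccng1, snd1 and sec22a, with r from 0.96 to 0.95. On deviations from genotype means, which are part of the values that picked these genes, r was 0.86 to 0.93. The p3h1 enzyme hydroxylates collagen, and ccng1 encodes cyclin G1. In 3-month livers, r with alas1 was -0.39 for ccng1, -0.48 for snd1 and 0.67 for sec22a. For foxa2 they were kdf1b, kiaa0922, pdk2a, nupl2 and rxrgb, with r from 0.93 to 0.91. The third of these, pdk2a, had r = 0.92 pooled and 0.40 on deviations. For pdk2a they were ppp1r21, nub1, keap1, fzd9 and serbp1a, with r from 0.96 to 0.94, where keap1 encodes the partner that holds the oxidative-stress factor NRF2 in check. At 3 months r with pdk2a was -0.13 for ppp1r21, -0.38 for keap1 and 0.04 for fzd9. By Spearman's rho, 0, 1 and 0 of the 5 named for alas1, foxa2 and pdk2a were again in the top 5. The livers share the gap between double mutants and the other genotypes, so a high pooled r shows that gap as well as any finer likeness.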

How the data were processed

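The authors deposited raw read counts per gene in 3 tables; the labels give polyA RNA libraries read single-end. Per the submitters' processing notes, FastQC 0.11.8, Trim Galore 0.6.4, cutadapt 3.4, STAR 2.7.6a and edgeR 3.32.1 were used; the counting program, genome build, annotation and strand are not given in the sources used here. Of 39 labelled samples 37 were analysed: 1 atm mutant liver (male 3) was not analysed here, and cgas mutant male 1 had 0 counts in its column. The 3-month tables hold the first 16383 genes, and at 2 months these genes carried 46.2 to 68.2% of liver counts and 63.3 to 65.1% of brain counts, so levels were compared only within a table. Counts were fitted with edgeR 4.0.16 in R 4.3.3 (TMM, filterByExpr, robust glmQLFit and glmQLFTest, Benjamini-Hochberg over all genes tested, threshold 0.05) with sex or genotype as covariate; SE were recovered from the quasi-likelihood statistic. The fits were tested on simulated data. CPM are TMM-scaled, and log2 CPM use a prior count of 2. Alternatives were RLE scaling, no filter, DESeq2 1.42.0, library sizes without the 20 most-counted genes, library totals without scaling (added after seeing the data), fewer groups, the replicate number as a block and each library left out. The genes and lists were chosen with earlier results of these data known. Named genes are the 3 genes, their relatives, the 5 most like each in liver, list genes past the threshold in double mutants against WT and up to 2 further per list by level; some list genes passing by sex were named after their values were seen, and a few list genes are not reported here. P-values measure the spread between these fish, and counting error is small beside it except for foxa2 in brain.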

Additional observations from a re-analysis of the deposited data

Results flagged for a closer look

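Of 19 groups of 4 to 10 libraries screened for 1 library far from the others, 3 held one, 2 of them through the same library; the 95% critical value used lets chance pick about 1 in 20 groups. In WT livers at 3 months, male L33 had 611.6 CPM of alas1, against 173.3 to 193.2 CPM in the other WT males. In cgas mutant brains at 3 months, male 3 had 264.1 CPM of alas1 against 81.9 to 132.0 CPM in the other 4, and 141.5 CPM of pdk2a against 44.8 to 65.3 CPM. In L33, pdk2a was at 52.1 CPM, between the other WT males.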

How the results depend on the processing

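Of 828 alternative values, 770 kept their direction, size and, outside the selecting comparisons, side of the threshold. Of the others, 4 newly passed, 16 moved and 38 turned in sign. Calls lost in the selecting comparisons are not counted in this tally. For double mutants against WT in liver, alas1, foxa2 and pdk2a no longer passed with the replicate block or with only the groups compared. Their edgeR adjusted p reached 0.174, 0.153 and 0.143 with a liver left out. Without scaling factors, foxa2 and pdk2a against WT in double-mutant liver moved to -1.68 and -1.25. Signs turned there for sex in liver (foxa2 0.0567, pdk2a 0.0908), sex by genotype for foxa2 (0.11 for double mutants, 0.43 for atm), liver against brain for pdk2a (-0.24), cgas brain (alas1 -0.20, pdk2a -0.11) and atm brain (alas1 0.0055). DESeq2 passed alas1 in sex by double mutant (-1.52) and sex by atm (-1.58), and WT livers alone passed alas1 by sex (-1.71). These fits share livers with the comparison that selected alas1. Without the 20 most-counted genes, alas1 in atm brain was 0.0031. In WT brains alone sex gave -0.14 for alas1 and -0.0707 for pdk2a. The cause was not tested.

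With the replicate block, foxa2 by sex in liver was 0.014, pdk2a was -0.31 and -0.56 in sex by double mutant and by atm, and -0.0359 by sex in brain; no call of the 3 genes outside the selecting comparisons changed. Correlations of same-numbered deviations averaged -0.33 to 0.12, over 3 or 4 pairs per comparison, too few to show whether the numbers pair the samples. The liver against brain fit in WT did not pair same-numbered samples, and with the block 14342 genes passed there. In liver, double mutants against WT gave 107 genes, 662 without scaling, 1257 by DESeq2 and 0 with the block or with only the 2 groups; against atm mutants 7, 0, 375, 0 and 1; sex gave 439, 511, 1674 and 34 with the block, and 982 in WT alone; sex by double mutant 68, 958, 789 and 0. Double against atm mutants gave 17 genes with no filter. For atm mutants against WT, liver gave 0 genes, 118 by DESeq2 and 8 with only the 2 groups, and brain 2, 33 and 4. Sex by atm gave 0, 202 by DESeq2 and 1 with no filter. In brain, double mutants against WT gave 1, 23 by DESeq2 and 0 with the block or only the 2 groups, and sex 1, 41 and 281 in WT alone. At 3 months blm gave 0, 163 by DESeq2 and 1 without scaling, and cgas 64, 642 and 118.

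Over all 11 livers, r was 0.83 for alas1 with foxa2 and 0.74 with pdk2a, values that include the gap between double mutants and the others. Of 16173 genes, 2.62 and 6.43% had an r with alas1 at least as high. Without the 2 libraries farthest from the median, these r were 0.94 and 0.96. Likewise r was 0.98 and 0.65 in WT and atm livers, 0.77 in 3-month deviations, and -0.41, 0.0294 and 0.29 in brain. Leaving out each replicate in turn, r ran from 0.0174 to 0.77 for alas1 with pdk2a in liver deviations, 0.34 to 0.79 at 3 months and -0.041 to 0.67 in 3-month deviations; from -0.0683 to 0.68 for foxa2 with pdk2a in WT and atm livers; in brain deviations from -0.14 to 0.37 (alas1, foxa2), 0.091 to 0.63 (alas1, pdk2a) and 0.39 to 0.84 (foxa2, pdk2a), and from 0.78 to 0.99 in 3-month brains. Likewise sex by double mutant ran from -1.72 to -1.25 for alas1 and -0.11 to 0.68 for pdk2a; sex by atm from -0.95 to 0.35 for foxa2 and -0.30 to 0.50 for pdk2a; atm brain from -0.0535 to 0.05002 for alas1; double against atm mutants in brain from -0.19 to 0.0623 for foxa2 and -0.11 to 0.21 for pdk2a; sex in brain from -0.0191 to 0.11 for alas1 and -0.0091 to 0.20 for pdk2a; cgas brain from -0.20 to 1.07 for alas1 and -0.0948 to 1.01 for pdk2a. Not run were sex by atm without its only male and the search of promoters for motifs. Depth limits foxa2 in brain, with 44 to 151 counts.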
